A study of Equus caballus with 13 samples.

Results

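Integrin subunits are the membrane proteins through which cells hold on to the surrounding matrix, and their RNAs were followed here in cultured horse chondrocytes, the cells of cartilage. The members were the 10 genes ITGA1, ITGA2, ITGA3, ITGA5, ITGA6, ITGA10, ITGA11, ITGAV, ITGB1 and ITGB5, taken by symbol from both deposited tables of RNA kinetics. Of these 10, 9 were found in both tables, among 11331 genes listed in at least 1 of them. ITGA2 was listed in neither table and was not analysed here. The study compared wild-type cartilage cells of old female (5 samples), young female (5 samples) and young male horses (3 samples). All 13 samples had been cultured for 2 days and labelled for 4 h with 4-thiouridine (4sU), a uridine analogue that marks RNA made during the labelling. Ages in years are not given in the labels, and the labels do not say whether each sample came from a separate horse.

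Each table gives, for every gene and group, 1 synthesis rate (in arbitrary units) and 1 half-life, the time in which the RNA present falls to 50% of its amount. Half-lives were read as hours. The implied level of an RNA, its amount at a steady state, is the synthesis rate over the decay rate. The age table sets old female against young female cells and the sex table sets young male against young female cells, so the same 5 young female samples serve as the reference of both. The values belong to whole groups, with no value per sample, no read count and no error. The depth is therefore unknown, no difference below could be tested against the spread between samples, and differences are described by size, with an absolute log2 ratio of 1 (2-fold) as the threshold. Group and batch cannot be told apart, since 12 batch labels cover the 13 samples and the only shared one, batch 10, holds 1 young female and 1 young male sample. In such bulk cultures, fewer cells of a type and less RNA per cell cannot be told apart either.

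An integrin receptor is a pair of an α and a β chain. The β1 chain, encoded by ITGB1, pairs with most α chains, and the α chain decides which matrix protein is bound. The α1, α2, α10 and α11 chains make collagen receptors with β1, and α10β1 is the receptor best known for binding cartilage collagen. The α5β1 receptor binds fibronectin, αV chains pair with β1, β3, β5, β6 or β8 to bind vitronectin, fibronectin and latent TGF-β, and α3β1 and α6β1 bind laminins of the pericellular matrix. Inside the cell, talin and kindlin activate the receptor and couple it to the actin cytoskeleton, and the kinases FAK (PTK2) and ILK act at the same sites.

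The label chondrocyte was checked against marker genes. All 10 chondrocyte markers, among them COL2A1, ACAN and SOX9, were listed in both tables. Of 6 endothelial markers 1 was listed (VWF), and of 8 leukocyte markers 1 (CD14), with PECAM1, CDH5 and PTPRC listed in neither table. Of 10 fibroblast and synovial markers, 7 were listed in the age table and 8 in the sex table. Being listed is not a measure of amount. In young female cells of the age table the implied levels of the chondrocyte markers ran from 200 (CNMD) to 664956 (ACAN). Those of the fibroblast and synovial markers ran from 2776 (COL1A1) to 149775 (DCN). Of 6 muscle and pericyte markers, 3 were listed in the age table and 5 in the sex table, where ACTA2 (smooth muscle actin) was among them.

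The RNAs of the 9 subunits spanned a wide range of stability. In young female cells of the age table the half-lives were 4.13 h for ITGA5, 4.28 h for ITGA3, 10.1 h for ITGA6, 14.4 h for ITGA1, 15.5 h for ITGA11, 29.7 h for ITGA10, 33.6 h for ITGB1, 40.0 h for ITGB5 and 69.3 h for ITGAV. All 9 exceeded the median of all 11056 genes of that table, 3.64 h. The β chains and the collagen receptor chain ITGA10 thus lay among the most stable RNAs, at the 95.0 to 97.3 percentiles of all half-lives, while ITGA5 and ITGA3 lay near the middle, at the 54.3 and 55.6 percentiles. ITGA5 and ITGA3 differed by a factor of 1.04 and ITGA1 and ITGA11 by 1.08, and with no spread to set them against, neither pair can be ordered. The value of ITGAV is the ceiling at which the half-life estimates stop, a decay rate of 0.01 per h, which 45 of the 10974 genes in both tables reached in every group. ITGAV is therefore known only to be long-lived, and differences in its half-life were not detectable.

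**Figure D1:**
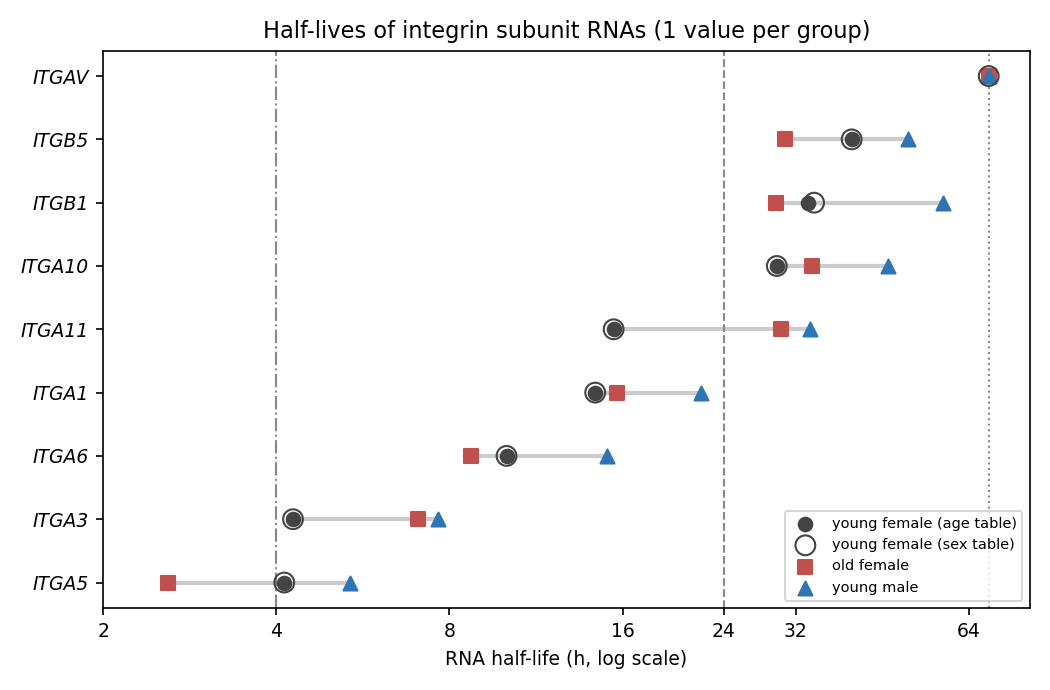
Half-life of each integrin subunit RNA (x axis, hours, log scale) in young female (circles, filled for the age table and open for the sex table), old female (squares) and young male cells (triangles). Each symbol is 1 group value with no error, the vertical lines mark the 4 h of labelling, 24 h and the ceiling of 69.3 h, and the young male triangle lies to the right of the young female circles for 8 of the 9 genes.

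How well 4 h of labelling resolves these values depends on how much of the RNA is new by then. Under simple exponential decay at steady state, a half-life of 4.13 h (ITGA5) means that 48.9% of the RNA was made during labelling, one of 15.5 h (ITGA11) means 16.4%, one of 33.6 h (ITGB1) 7.92%, and the ceiling 3.92%. Only 4 of the 9 subunits (ITGA1, ITGA3, ITGA5 and ITGA6) had half-lives of 1 to 24 h, the range taken as resolvable, in every group. The second estimate of the same young female samples, in the sex table, moved the members' half-lives by at most 2.54%, the value for ITGB1. Their young female synthesis rates were 4.32% to 6.90% lower in the sex table, against a median of 4.45% over all shared genes. This repeat shares its reads and holds no variation between horses. In ITGB1 and PTK2B, a kinase of the adhesion complex, the implied level did not follow the half-life. For ITGB1 the half-life was 33.6 h in the age table and 34.5 h in the sex table, the level 59634 and 56930. For PTK2B the half-life was 6.56 and 8.37 h, the level 141 and 135, and the synthesis rate 14.9 and 11.2. By definition, a longer half-life at a given level means a lower synthesis rate.

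Among the collagen receptor chains, ITGA11 had the highest half-life ratios of all 9 subunits in both comparisons. The α11 chain binds fibrillar collagens and is best known from fibroblast-like mesenchymal cells. Its half-life was 15.5 h in young female and 30.1 h in old female cells, and the sex table gave 15.4 h for young female and 33.9 h for young male cells. Both other groups thus lay far above the young female value. The log2 ratio was 0.96 for old cells, just under the threshold, and 1.14 for male cells, past it. Relative to the median of all genes by age, −0.084, the old value was 1.05 and past the threshold. The uncentred ratios lay at the 98.4 and 96.0 percentiles of all genes. The male half-lives of all genes were shifted by a median log2 ratio of 0.27, and relative to that shift the male value of ITGA11 was 0.86 and no longer past the threshold. Relative to genes of like half-life it was 0.63. The old and male half-lives both lie beyond 24 h, where the implied share of new RNA had gone from 16.4% in young female cells to 8.79% in old and 7.84% in male cells.

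The synthesis rate of ITGA11 differed between the comparisons in direction. It was 1172 in young female and 856 in old cells (log2 ratio −0.45), and 1121 in young female and 1441 in male cells of the sex table (0.36). The implied level was accordingly 1.43-fold the young female one in old cells and 2.82-fold in male cells. The male level ratio, log2 1.5, was the highest of the 9 subunits, at the 98.8 percentile of all genes, and it was 1.07 after centring within genes of like half-life.

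ITGA10 had a half-life of 34.1 h in old against 29.7 h in young female cells (log2 0.20, at the 84.7 percentile of all genes) and a synthesis rate of 767 against 805, which gives a level ratio of 1.09-fold. In male cells the half-life was 46.3 against 29.7 h and the synthesis rate 907 against 770. The male level was 1.84-fold the young female one (log2 0.88, or 0.45 after centring within genes of like half-life), under the threshold. ITGA1, whose product prefers network-forming collagens, had a half-life of 15.6 h in old against 14.4 h in young female cells and a synthesis rate of 911 against 659, the highest log2 ratio of synthesis by age among the members (0.47). Its old level was 1.51-fold the young female one, also the highest by age. In male cells ITGA1 combined a longer half-life, 21.9 against 14.3 h, with a lower synthesis rate, 495 against 630. The male level was 1.20-fold the young female one, and the direction turned after centring within genes of like half-life (log2 −0.032). In all 3 listed collagen receptor chains the half-life and the implied level were higher than in young female cells in both comparisons, which share their reference, with the exception of the male level of ITGA1 after that centring. Among all genes 36.5% had a longer half-life by age and 77.3% by sex, and 50.7% and 50.5% a higher level, so the male half-life count is near the background.

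The 2 laminin receptor chains differed from each other. ITGA3 was among the short-lived members, at 4.28 h in young female and 7.05 h in old cells, with synthesis rates of 646 and 438. In the sex table the half-life was 4.28 h in young female and 7.63 h in male cells, with synthesis rates of 617 and 310. The log2 ratios of half-life were 0.72 and 0.84 and those of synthesis −0.56 and −0.99. At a near-equal level a longer half-life goes with a lower synthesis rate by definition, so these differences are not independent. The implied levels were 1.12-fold the young female level in old and 0.896-fold in male cells. The male synthesis ratio lay just short of the threshold and reached −1.06 when the young female value of the age table was used. Both kinds of centring moved it away from the threshold. Centred on the median of all genes, male synthesis was at −0.71 and the male half-life ratio at 0.56. Centring within genes of like half-life gave −0.82 for synthesis and 0.45 for half-life. All 4 half-lives of ITGA3 lie inside the resolvable range, with an implied share of new RNA of 47.7% in young female, 32.5% in old and 30.5% in male cells.

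ITGA6 showed the reverse arrangement by age, with a half-life of 8.74 h in old against 10.1 h in young female cells and a synthesis rate of 698 against 512. In male cells both quantities were higher. The half-life was 15.0 against 10.1 h and the synthesis rate 663 against 489. The male level of ITGA6 was 2.02-fold the young female one (log2 1.02), just past the threshold. It was 0.95 with the young female value of the age table and 0.83 after centring within genes of like half-life, both under the threshold. ITGA6 and ITGA11 were the only members past the threshold for level.

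The fibronectin receptor chain ITGA5 was a short-lived member in every group. Its half-life was 2.60 h in old against 4.13 h in young female cells, and 5.37 h in male cells against 4.13 h. ITGA5 was thus shorter-lived in old cells (log2 −0.67, the lowest by age among the members, at the 4.78 percentile of all genes) and longer-lived in male cells (0.38, at the 61.2 percentile, and 0.10 relative to the shift of all genes). The share of new RNA implied by these values was 65.6% in old, 48.9% in young female and 40.3% in male cells. Synthesis rates were 1573 in old against 1294 in young female cells, and 1328 in male against 1236 in young female cells. The implied level was 0.763-fold the young female one in old cells and 1.40-fold in male cells.

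For ITGAV, with its half-life at the ceiling in all groups, the half-life could not be compared. The rate was 306 in old against 225 in young female cells (log2 0.44) and 343 in male against 215 in young female cells (0.67, the highest by sex among the members). Because the half-lives are all set to 69.3 h, the level ratios of ITGAV, 1.36-fold for old and 1.59-fold for male cells, equal the synthesis ratios. A half-life beyond the ceiling would mean a lower synthesis rate at the same level, so the synthesis ratios are the less firm ones.

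The shared β chain ITGB1 had similar synthesis rates by age. The rate was 1209 in old and 1230 in young female cells and the half-life 29.6 against 33.6 h, with a level ratio of 0.866-fold. The sign of its synthesis ratio (log2 −0.025) turned with the young female value of the sex table (0.078). In male cells the half-life of ITGB1 was 57.7 against 34.5 h and the synthesis rate 966 against 1145, with a level ratio of 1.41-fold. That synthesis ratio, log2 −0.25, was 0.033 relative to the shift of all genes. ITGB5, the β chain of the vitronectin receptor αVβ5, had a half-life of 30.6 h in old against 40.0 h in young female cells and a synthesis rate of 1037 against 1064 (log2 −0.037, or 0.030 with the young female value of the sex table). In male cells the half-life was 50.2 h against 40.0 h and the synthesis rate 1093 against 1016. The male half-life ratio, log2 0.33, turned to −0.18 after centring within genes of like half-life. The level of ITGB5 was 0.746-fold the young female one in old cells, the lowest by age among the members, and 1.35-fold in male cells. After centring within genes of like half-life the male log2 ratios of level were 0.071 for ITGB1, from 0.50, and 0.0049 for ITGB5, from 0.43. The differences in new RNA behind these long half-lives are small, for ITGB1 8.94% in old against 7.92% in young female cells and 4.69% in male against 7.73% in young female cells.

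Over all 9 subunits, 0 were past the threshold by age for half-life, synthesis rate or level, where 3.53%, 7.52% and 4.12% of all genes of the table were. By sex, 1 was past it for half-life (7.58% of all genes), 0 for synthesis (12.2%) and 2 for level (4.61%). The median log2 ratio of the members' half-lives was 0.00 by age, with 4 longer, 4 shorter and ITGAV equal, beside −0.084 for all genes. In male cells it was 0.61, with 8 of 9 longer, beside 0.27 and 77.3% of all genes. After centring within genes of like half-life that median was 0.14 and 7 of 9 were above 0, with ITGB5 below. The centred value of ITGAV, −0.51, is only the shift of its decile, since its half-lives are at the ceiling, and gives no direction. Synthesis rates had a median of −0.025 by age (all genes 0.080) and 0.11 by sex (all genes −0.28), with 6 of 9 higher in male cells, beside 28.9% of all genes. Implied levels had a median of 0.16 by age (all genes 0.0048), with 6 of 9 higher, and 0.50 by sex (all genes 0.0051), with 8 of 9 higher, ITGA3 being the exception. The male median for level was 0.25 after centring within genes of like half-life. Opposite signs of the half-life and synthesis ratios were seen by age in ITGA3, ITGA5, ITGA6, ITGA10 and ITGA11, and by sex in ITGA1, ITGA3 and ITGB1. For ITGB1 the sign of male synthesis turned relative to the shift of all genes. The medians of all genes also had opposite signs in both comparisons. The share of all genes with opposite signs was not counted, so these tallies have no background.

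**Figure D2:**
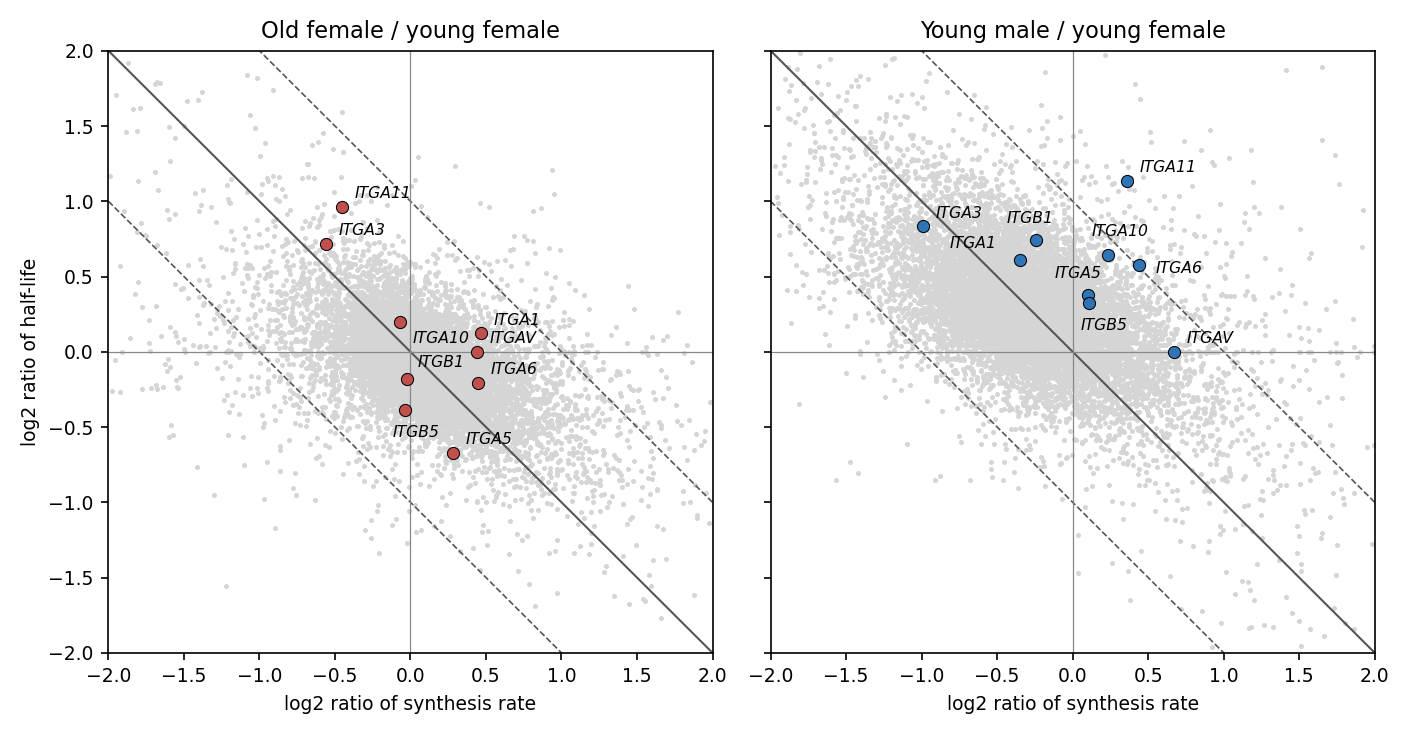
Log2 ratio of synthesis rate (x axis) against log2 ratio of half-life (y axis) for old over young female (left) and young male over young female cells (right), with the integrin subunits named and all other genes in grey. On the solid diagonal the implied level is equal in both groups and the dashed diagonals mark a 2-fold difference in level; ITGA11 and ITGA6 lie beyond the upper one in male cells, and 289 genes on the left and 334 on the right fall outside the axes.

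Levels of the marker lists differed between the groups as well. The summed implied level of the chondrocyte markers in old cells was 0.903 times that in young female cells, and in male cells 2.48 times. Their median log2 ratios of level were −0.37 by age, with 7 of 10 lower, and 1.55 by sex, with 9 of 10 higher. For the fibroblast and synovial markers the sums were 1.46 times the young female ones in old and 2.46 times in male cells, while their median log2 ratios of level were −1.0 by age (7 listed) and 1.38 by sex (8 listed). In old cells only DCN of the 7 was higher, at log2 1.35, and the other 6 were lower. The muscle and pericyte markers summed to 0.831 times the young female level in old and 1.57 times in male cells, with ACTA2 at a log2 ratio of level of 4.82 in male cells and 4 of the 5 listed lower there. The part of these differences in the integrin values was not tested.

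Since every α chain here can pair with β1, each α RNA was also set against ITGB1 within the same group, a measure that no scaling of a whole group can alter. In old cells the listed level relative to ITGB1 was higher than in young female cells for 6 of 7 α chains. It ran from 1.26-fold for ITGA10 to 1.74-fold for ITGA1, and was 0.882-fold for ITGA5. The 6 include ITGAV, whose half-life is at the ceiling. Relative to ITGB1, 76.9% of all other genes of the table were higher in old cells as well, so this count is near the background. For male cells the listed level relative to ITGB1 was higher for 4 of 7 α chains, ITGAV again among them, beside 13.1% of all other genes. With levels centred within genes of like half-life it was higher for 5 of 7, also with ITGAV, beside 41.3%. ITGA5 turned from log2 −0.016 to 0.49. ITGA11 had 2.00-fold the young female ratio (log2 1.00, under the threshold before rounding), ITGA6 1.43-fold, ITGA10 1.30-fold and ITGAV 1.13-fold, while ITGA5 was at 0.989-fold, ITGA1 at 0.849-fold and ITGA3 at 0.635-fold. None of the 14 ratios passed 2-fold. ITGA11, ITGA6 and ITGA10 were higher relative to ITGB1 in both comparisons, which share the young female samples. The ratios of ITGAV to ITGB1 were above 1 in both comparisons too. The ceiling leaves the half-life and synthesis of ITGAV open. In ITGB1 and PTK2B the level did not follow the half-life, but whether this holds at the ceiling was not tested. Like the other ratios, those of ITGAV have no error. The same holds for ITGAV set against ITGB5, listed as 1.82-fold in old and 1.18-fold in male cells.

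**Figure D3:**
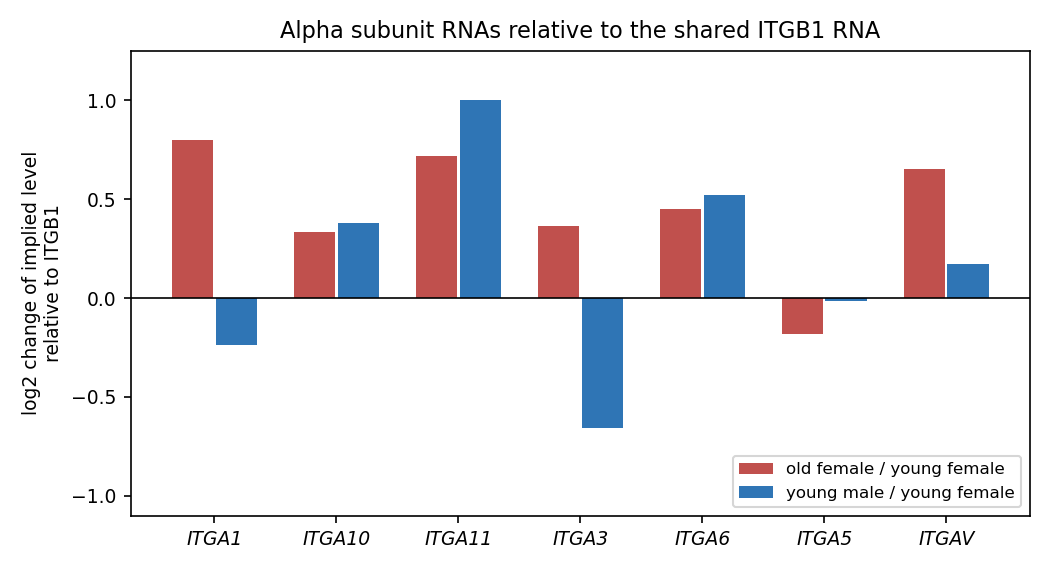
Difference from young female cells in the implied level of each α subunit RNA relative to ITGB1 RNA (y axis, log2), for old female and young male cells. Each bar is 1 value with no error; the bars run from −0.66 for ITGA3 to 1.00 for ITGA11, both in male cells.

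The genes with the kinetics closest to those of ITGB1 were sought over 6 values, the log2 half-life and the log2 synthesis rate in the 3 groups, among the other genes in both tables. The nearest was another member, ITGB5, at a Euclidean distance of 0.48 log2 units, followed by the ribosomal protein gene RPL9 (0.64) and a gene listed only as ENSECAG00000017514 (0.65). ITGA10 was the next closest member, at rank 34 with a distance of 0.99, and ITGA5 the farthest, at 5.79. The measure compares synthesis rates between genes, and whether these were scaled to gene length is not given in the sources used here.

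Of the 16 other integrin subunits looked up, 7 were listed in both tables: ITGA2B, ITGA9, ITGAE, ITGAX, ITGB3, ITGB7 and ITGB8. ITGB8, an αV partner that takes part in the activation of TGF-β, had a male synthesis rate of 272 against 855 (log2 −1.65) at half-lives of 2.43 and 1.97 h, and a level log2 1.35 below the young female one. ITGAV relative to ITGB8 was accordingly listed as 4.06-fold higher in male cells (log2 2.02, or 1.42 after centring within genes of like half-life). ITGAV enters this ratio with a half-life at the ceiling. The ratio is of implied levels and has no error. By age ITGB8 was under the threshold, with synthesis rates of 684 in old and 894 in young female cells. ITGB3, another αV partner, had a half-life of 29.4 h in old cells and the ceiling value in young female cells. The listed log2 ratio of its level was −1.5. As the young female half-life is known only to be long, the split into half-life (−1.24) and synthesis (−0.26) is not firm. ITGAV relative to ITGB3 was listed as 3.83-fold higher in old cells, with both half-lives at the ceiling in young female cells. In old cells 6 of these 7 had a lower level, where 50.7% of all genes had a higher one, and 2 (28.6%, beside 4.12%) were past the threshold, ITGB3 and ITGAX, both with a half-life at the ceiling. The median log2 ratio of the 7 by age was −0.29, beside 0.16 for the 9 subunits. In male cells 4 of 7 had a higher level, with a median of 0.062 beside 0.50.

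Genes of the adhesion complex on the inner side of the receptor passed the threshold at shares near or below those of all genes. Of 56 looked up, 51 were listed in the age table, where 0 were past the threshold for half-life (beside 3.53% of all genes) and 4 (7.84%, beside 7.52%) for synthesis. The sex table listed 50, of which 2 (4.00%, beside 7.58%) were past it for half-life and 4 (8.00%, beside 12.2%) for synthesis. The median log2 ratio of their levels was 0.00 by age and 0.18 by sex. Talin 1 (TLN1) had a half-life of 15.9 h in both old and young female cells and 22 h in male cells, and ILK one of 6.58 h in old, 6.21 h in young female and 9.17 h in male cells. By age, synthesis was higher for the kinase PTK2B (log2 1.28), ASAP1 (1.04) and the talin recruiter APBB1IP (1.02) and lower for the ILK partner PARVB (−1.21). Their log2 ratios of level were 0.61 for PTK2B and 0.30 for ASAP1, both under the threshold, 1.19 for APBB1IP and −1.76 for PARVB. After centring within genes of like half-life ASAP1 and APBB1IP were both at 0.96, just under the threshold. By sex, synthesis was lower for LIMS1, which encodes the ILK partner PINCH1 (−1.21), and for PDLIM5 (−1.09), and the half-life of APBB1IP was longer (1.39). Their male log2 ratios of level were −0.41, −0.36 and 0.70, all under the threshold. The young female half-life of APBB1IP was 4.34 h in the age table and 5.04 h in the sex table, a wider gap than for any member. The same centring gave −0.83 for LIMS1 and −0.73 for PDLIM5, both under the threshold, and 1.03 for APBB1IP. ITGB1BP1, whose product binds the β1 tail and keeps the receptor inactive, had a male half-life of 54.8 against 24.5 h (1.16). After centring within genes of like half-life this ratio was 0.65, under the threshold, and ITGB1BP1 was chosen after its values were seen. Of 27 genes of integrin trafficking looked up, 24 were listed in each table, with 2 (8.33%, beside 7.52% of all genes) past the threshold for synthesis by age, SLC3A2 (1.13) and SHANK3 (−1.15). By sex 2 (8.33%, beside 7.58%) were past it for half-life, RAB4A (1.19) and CD82 (1.08, chosen after its values were seen). After centring within genes of like half-life RAB4A was at 0.86 and CD82 at 0.58, both under the threshold. For half-life by age and synthesis by sex the count was 0.

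Among genes of the integrin ligands, larger shares were past the threshold. By age, 7 of 36 listed (19.4%, beside 7.52% of all genes) were past it for synthesis, 6 of them lower in old cells, and 6 (16.7%, beside 4.12%) for level. Among ligands with resolvable half-lives, synthesis in old cells was lower for COL1A1 (log2 −2.62) and tenascin C, TNC (−1.04), and the half-life was shorter for COL3A1, 8.76 against 19.9 h (−1.19). In male cells 18 of 38 (47.4%, beside 4.61%) were past the threshold for level, all upward, with a median log2 ratio of 0.92, or 0.51 after centring within genes of like half-life. After that centring only COL1A1, COL1A2, COL2A1, COL9A1, COL10A1, COL11A1, IBSP, CHAD and COMP were past it. Both half-lives were resolvable for just 5 of the 38 ligands, 0 of the 18 were among these, and 8 of the 18 were at the ceiling in at least 1 group. COL2A1, the main cartilage collagen bound by α10β1, had a level log2 ratio of −0.63 in old and 1.74 in male cells. For FN1, the ligand of α5β1, the ratios were 0.69 and 1.33, with a male half-life at the ceiling. The male ratio of FN1 was 0.91 after centring within genes of like half-life, under the threshold. The same list includes collagens that also serve as chondrocyte or fibroblast markers here, and no test compared ligands with receptors.

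**Figure D4:**
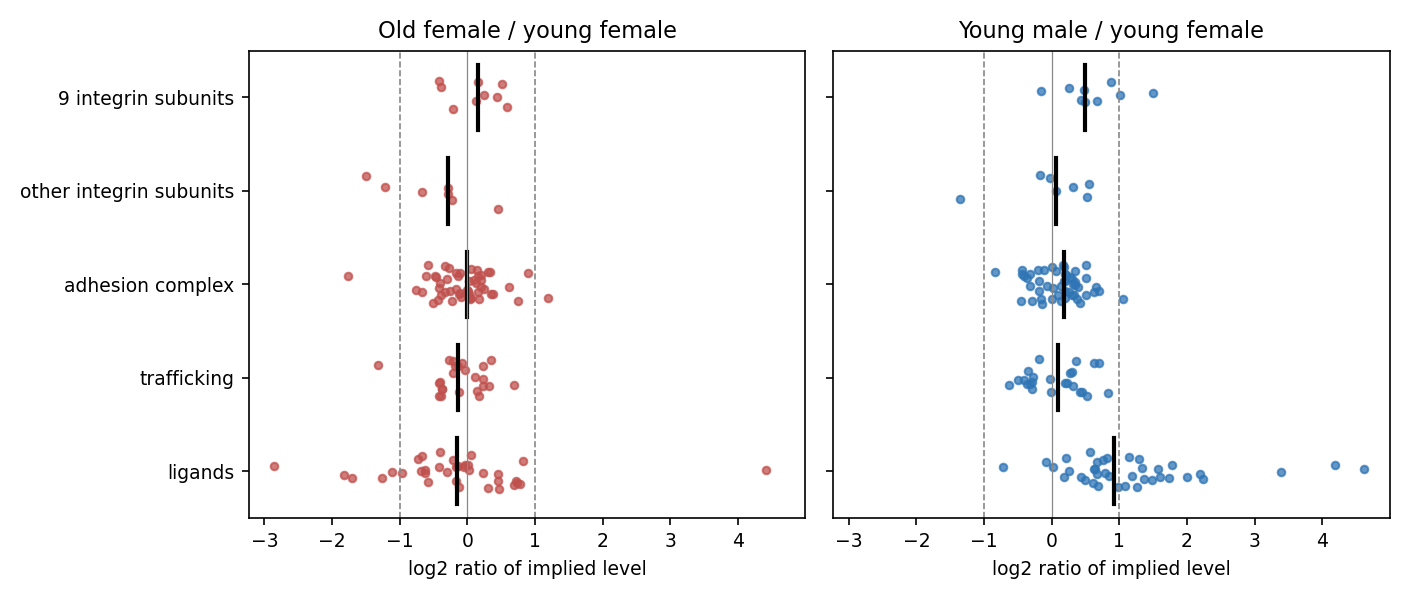
Log2 ratio of implied level (x axis) for old over young female (left) and young male over young female cells (right) in 5 gene lists, 1 point per gene, with the list median as a black bar and dashed lines at a 2-fold difference; the vertical scatter within a list has no meaning. The medians of the 9 integrin subunits are 0.16 and 0.50, and those of the ligands −0.15 and 0.92.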

How the data were processed

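RNA of 13 chondrocyte cultures was alkylated with iodoacetamide for 15 min, which lets incorporated 4sU be recognised in sequencing, and strand-specific poly(A)-selected libraries were made, per the labels' protocols. The submitters' processing notes name cutadapt 4.5, STAR 2.5.3 and the build EquCab3.0. The kinetic model, gene filter, scaling of synthesis rates and the way replicates were combined are not given in the sources used here. The authors deposited 2 tables with 1 synthesis rate and 1 half-life per gene and group. Neither unit is stated; hours were assumed for half-lives because labelling lasted 4 h and values stop at a decay rate of 0.01 per h. The "Young" columns of the age table were read as young female, the samples whose labels name that table.

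With no values per sample, the tests on replicates that the design provided for could not be run. Log2 ratios were computed within each table with pandas 2.3.3 and numpy 2.4.6, without pseudocount or gene filter, and the counting was tested on simulated data. A percentile is the share of genes in the table with a lower value. "Genes of like half-life" are deciles of the genes in both tables, ranked by their half-life in the third group, which is not in the ratio. From 4 lists of other genes, up to 3 rises and 3 falls per list, comparison and quantity were named if past the threshold with half-lives of 1 to 24 h. A gene that this rule also names is not reported here. Single genes given for a role (TLN1, ILK, ITGB3, COL2A1, FN1) were chosen outside that rule, after their values were seen. All 186 symbols looked up matched the RefSeq gene table by symbol. The members, lists and rules were chosen with earlier results of these data known. Alternatives were a threshold of 0.5, centring on all genes, the other table's young female value, the 1 to 24 h range, and centring within half-life deciles, the last added after seeing the data.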

Additional observations from a re-analysis of the deposited data

How the results depend on the processing

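No paired analysis was possible because the tables hold 1 value per group and none per sample, and leaving out a replicate could not be run for the same reason. A count was taken as unmoved within 1.5 times and a median or single log2 ratio within 0.1; by these limits 31 of the alternative counts and medians stayed and 23 moved. At a threshold of 0.5 the members counted by age became 3 for half-life, 1 for synthesis and 2 for level, and by sex 6, 2 and 4. Centring on all genes gave 1 past the threshold for half-life by age (ITGA11) and 0 by sex, and male medians of 0.34 for half-life and 0.38 for synthesis. With the other table's young female values the median of synthesis by age was 0.078, and by sex 1 member was past the threshold for synthesis (ITGA3) and 1 for level (ITGA11). Among the 4 members of 1 to 24 h the medians of synthesis were 0.36 by age and −0.12 by sex, the male level median was 0.37, and by sex 0 were past the threshold for half-life and 1 for level. Centring within half-life deciles left 0 members past the threshold for male half-life and 1 for male level, with male medians of 0.14 for half-life, 0.29 for synthesis and 0.25 for level. The cause of these shifts was not tested. Of 162 alternative values of single members, 5 changed sign, and none of these belonged to a member past the threshold. They were ITGB1 (0.078) and ITGB5 (0.030) for synthesis by age with the other reference, ITGB1 for male synthesis after centring on all genes (0.033), and ITGB5 for male half-life (−0.18) and ITGA1 for male level (−0.032) within deciles. Depth is unknown, and half-lives beyond 24 h rest on little labelled RNA.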
